A study of Mus musculus with 48 samples.

Results

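The insulin-like growth factor family was examined in blood and medial prefrontal cortex (mPFC) of female mice. Its 10 listed genes, Igf1, Igf2, Igf1r, Igf2r, Igfbp2, Igfbp3, Igfbp4, Igfbp5, Igfbp6 and Igfbp7, were found by gene name on the array, where they are read by 16 of 55681 probes. The family was chosen by the blood levels of Igfbp6, which were among those with the largest rise from control to OVX+CUMS mice, so that contrast in blood is given as a description, with no test, for every member, and Igfbp6 gets no test in blood at all. All mice were C57BL/6J females of 17 weeks. Control mice had a sham operation and no stress, CUMS mice a sham operation and chronic ultra-mild stress, OVX mice a bilateral ovariectomy and no stress, and OVX+CUMS mice both. Each group held 6 mice, and the labels tie 1 blood array and 1 mPFC array to each of the 24 mice, which gave 48 arrays. Blood was drawn from the vena cava under pentobarbital and spun, so the RNA came from a cell pellet and says nothing of the proteins in plasma.

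IGF1 and IGF2 are small secreted hormones that act through IGF1R, a receptor tyrosine kinase related to the insulin receptor. IGF2R carries IGF2 into the cell for breakdown and also sorts lysosomal enzymes. The binding proteins hold the hormones in body fluids and control how much of them reaches the receptor. Most IGF1 of plasma is made by the liver under growth hormone, while in the brain the ligands and binding proteins are made locally by neurons, glia, vessels and the meninges.

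The probes are 60 bases long, and for Igf1 the choice of probe decided whether a level was measured at all. The first 30 bases of probes of Igf1, Igf2 and Igfbp6, on which the results turn, are printed below, 5′ to 3′ as on the array, and the capitals mark the bases shared by an overlapping pair of Igf1 probes.

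Igf1, A_55_P2031631: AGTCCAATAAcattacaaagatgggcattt
Igf1, A_55_P2085984: cctaccaaataacaataataAGTCCAATAA
Igf1, A_55_P2085974: ctcctgattgtatttgaagtggttattcaa
Igf1, A_55_P2031636: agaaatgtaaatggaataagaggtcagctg
Igf1, A_55_P2085979: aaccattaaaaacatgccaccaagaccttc
Igf2, A_55_P2118173: atcaaattatgtggtaattctgcaatgtag
Igfbp6, A_66_P139546: ctgtcacccttgggcctttacacagctagt

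In full, A_55_P2031631 and A_55_P2085984 share a run of 40 bases and are not independent readings. No other pair of Igf1 probes shares a run of 12 bases. The longest run that any member probe shares with a probe of another gene is 15 bases. In the mouse assembly GRCm38.p6, Igf1 lies at chr10:87858265-87937047, Igf2 at chr7:142650768-142666816, Igfbp6 at chr15:102144186-102149512 and Igfbp7 at chr5:77349240-77408045.

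A level is given as the log2 of the processed signal minus the 75th percentile of its array, so that 0 is the 75th percentile. That percentile was 54.9 to 192 signal units in blood, lowest in CUMS mouse 2, and 572 to 689 in mPFC. A low percentile raises every level of its array. Precision is limited by the number of arrays. A probe counted as detected in a tissue when it was well above background on all 24 arrays and exceeded a signal of 50 on at least 2. By this rule 20767 probes were kept for blood and 28357 for mPFC. Of the 16 member probes, 6 were detected in blood (Igf1 by 2 probes, Igf1r, Igf2r, Igfbp4 and Igfbp6) and 12 in mPFC (Igf1 by 4 probes, Igfbp2 by 2, Igf1r, Igf2r, Igfbp3, Igfbp4, Igfbp5 and Igfbp6). Igf2 and Igfbp7 were detected in neither tissue. The arrays of each tissue lay on 3 slides, and the slides follow the groups: slide 1 held 6 control and 2 CUMS mice, slide 2 held 4 CUMS and 4 OVX mice, and slide 3 held 2 OVX and 6 OVX+CUMS mice. Control and OVX+CUMS mice therefore share no slide, and no slide holds both surgeries at the same stress level. An OVX effect and a difference between slides thus cannot be told apart, also in a fit with slide as a block. All 6 erythroid genes were detected in blood and 4 in mPFC, and all 6 neuronal genes in mPFC and 2 in blood. Other lists did not separate the tissues in this way. In control mice the microglia list averaged 8.94 in blood and 7.42 in mPFC, and the endothelial list 6.59 and 4.98, each against its own tissue's 75th percentile. The array of OVX+CUMS mouse 5 stood apart in blood, with a summed level of 9 neutrophil genes of 11.83 on the log2 scale, while the remaining 23 mice had 8.34 to 9.92, and the mPFC array of the same mouse gave 3.12, with -0.78 to 0.30 in the rest. Of these 9 genes, 3 were detected in mPFC. Neutrophil genes were not the only ones with a high extreme in that group: the blood level of the monocyte list reached 6.75 in OVX+CUMS mice and at most 5.25 in the other groups.

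Igfbp6, a binding protein with a preference for IGF2, was lowest in blood of control mice and higher in each of the other groups, though the groups overlapped. Control mice 1 to 6 had levels of -1.32, -0.05, -1.07, -1.63, -1.26 and -1.33, and CUMS mice of -1.23, 0.22, 0.62, 0.62, -0.28 and -0.32. OVX mice had -0.37, -1.24, -0.99, 1.04, 0.51 and 0.07, and OVX+CUMS mice -0.09, -0.29, -0.21, 0.18, 3.97 and 0.35. Mouse 5 of the OVX+CUMS group lay far above all others, and control mouse 2 was the only control mouse that reached the range of the remaining OVX+CUMS mice.

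The group mean of Igfbp6 in blood was -1.11 ± 0.55 (SD, n = 6) in control, -0.06 ± 0.71 in CUMS, -0.17 ± 0.88 in OVX and 0.65 ± 1.64 in OVX+CUMS mice. OVX+CUMS mice exceeded control mice by 1.76 on the log2 scale, or 3.39-fold. Without mouse 5 the OVX+CUMS mean was -0.01 ± 0.27 (n = 5) and the difference 1.10, or 2.14-fold. The remaining 5 lay above all control mice but control mouse 2. In a model with a term for slide the difference was estimated at 0.42, with an SE of 1.30. Slide and the contrast cannot be told apart.

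**Figure D1:**
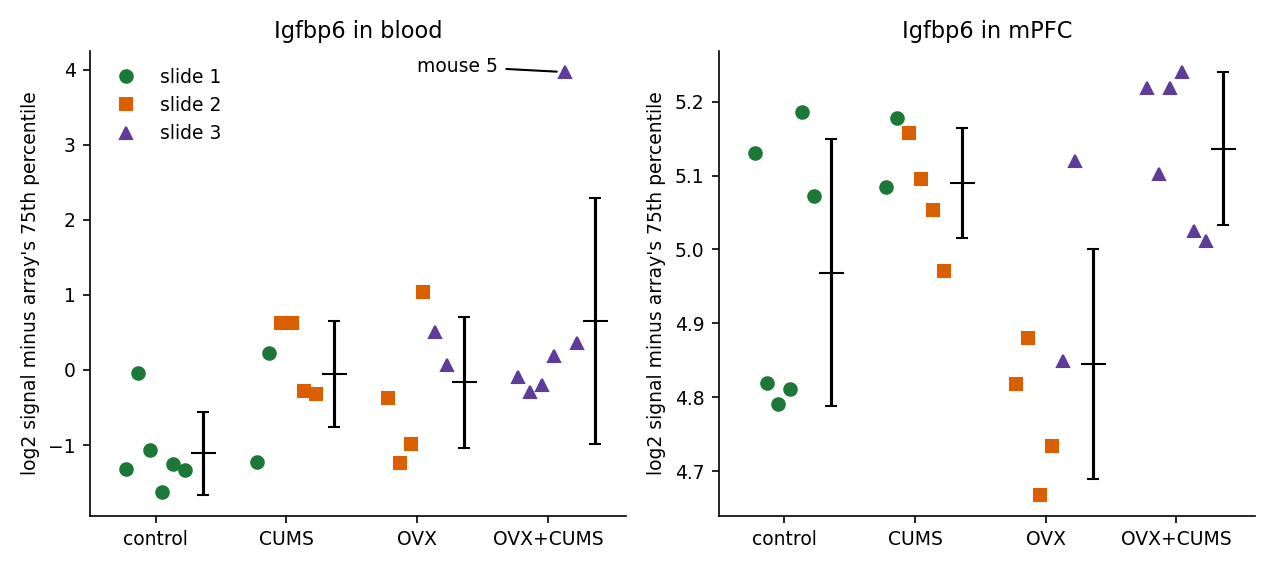
Igfbp6 (A_66_P139546) in blood (left) and mPFC (right) of the same mice, as log2 signal minus the 75th percentile of the array, with the vertical scale set for each tissue. Each point is 1 mouse, shape and colour give the slide, and bars give mean ± SD of 6 mice. OVX+CUMS mouse 5 is the high point in blood at 3.97 and is not apart in mPFC.

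The detected probes whose pattern over the 24 blood arrays was most like that of Igfbp6 read Mrgpra2b (Pearson's r = 0.908), Ifitm1 (0.905), Clec4e (0.902), Wfdc21 (0.902) and Lrg1 (0.899). Without OVX+CUMS mouse 5 they were Lrg1 (r = 0.792), Soat2 (0.781), Olfr800 (0.776), Mrgpra2b (0.775) and Ifitm1 (0.763). Clec4e encodes a pattern receptor of myeloid cells, and Lrg1 a glycoprotein stored in neutrophil granules. Clec4e was among the 5 only with that mouse included, and the other named genes were not assigned to a cell type here. These arrays share slides and scaling, and the correlations are a description.

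The neutrophil list was high in many of the mice with high Igfbp6. In OVX mice the list stood at 9.58 to 9.92 in mice 4 to 6 and at 8.34 to 8.78 in mice 1 to 3, and Igfbp6 was 0.07 to 1.04 in the former and -1.24 to -0.37 in the latter. In CUMS mice the list was highest in mice 3 and 4, at 9.49 and 9.83, and both had an Igfbp6 level of 0.62. CUMS mouse 2, with the lowest list level of its group at 8.45, had an Igfbp6 level of 0.22. Its blood array had the lowest 75th percentile, which raises the list level and the Igfbp6 level alike. CUMS mice 5 and 6 had list levels of 8.91 and 8.66 and Igfbp6 at -0.28 and -0.32. Between the groups the match was looser. The 5 OVX+CUMS mice other than mouse 5 had a list level of 8.47 to 9.07 and the control mice of 8.73 to 9.37, while Igfbp6 was higher in the former. Of the 9 listed genes, 8 were detected in blood, and by group the list was 8.96 ± 0.22 in control, 8.97 ± 0.57 in CUMS, 9.11 ± 0.68 in OVX and 9.26 ± 1.27 in OVX+CUMS mice. The part of neutrophils in the Igfbp6 levels was not tested. In blood, more cells of a type and more RNA per cell cannot be told apart.

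**Figure D2:**
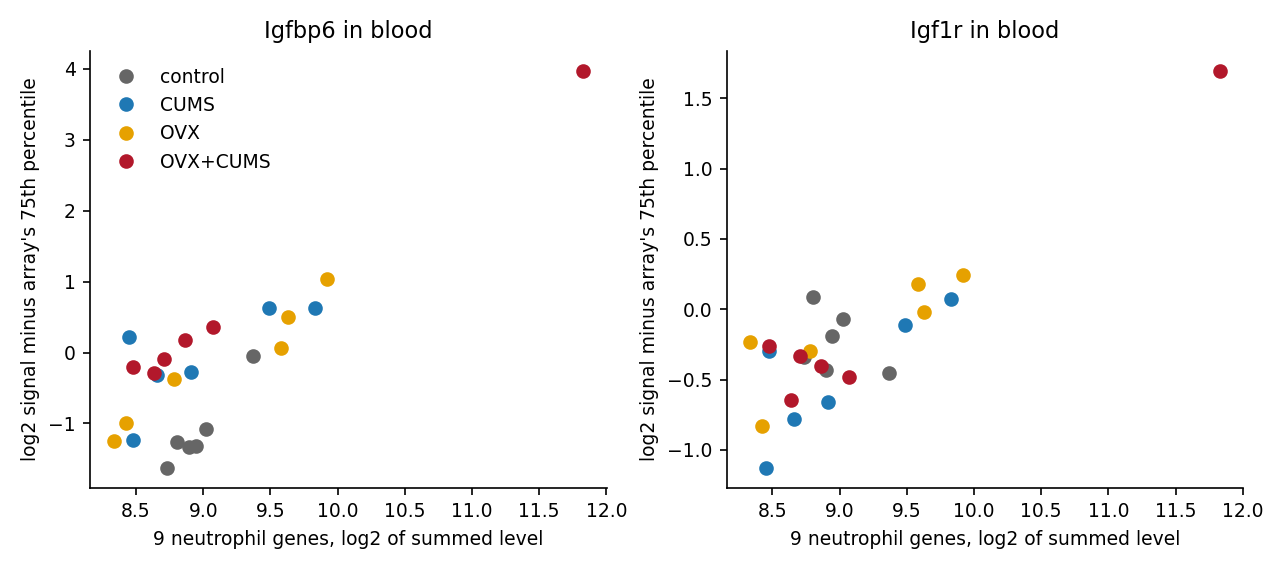
Igfbp6 (left) and Igf1r (right) in blood against the log2 of the summed level of 9 neutrophil genes; each point is 1 of the 24 mice, coloured by group. OVX+CUMS mouse 5 lies at 11.83 on the horizontal axis, with Igfbp6 at 3.97 and Igf1r at 1.70.

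In mPFC Igfbp6 was bright, with a processed signal of 16064 to 24136, and rose with CUMS. Its level was 4.97 ± 0.18 (SD, n = 6) in control, 5.09 ± 0.07 in CUMS, 4.84 ± 0.16 in OVX and 5.14 ± 0.10 in OVX+CUMS mice. The lowest, median and highest mice stood at 4.79, 4.95 and 5.19 in control, 4.97, 5.09 and 5.18 in CUMS, 4.67, 4.83 and 5.12 in OVX, and 5.01, 5.16 and 5.24 in OVX+CUMS mice. The stressed and unstressed groups overlapped, and 3 control mice and OVX mouse 6 reached the OVX+CUMS range. The CUMS effect, the mean difference of stressed from unstressed mice over both surgeries, was 0.21 (SE 0.05, adjusted p = 0.0401 by limma). The call was close to the threshold. It was lost with quantile normalization (adjusted p = 0.0530), with a shift by the spike-in probes (effect 0.08), with slide as a block (0.16, adjusted p = 0.673) and when any of 16 of the 24 arrays was left out, with adjusted p from 0.0214 to 0.0693. Within slide 1 the CUMS difference was 0.16 and within slide 3 it was 0.15, both short of the threshold. The OVX effect was -0.04 (SE 0.05, adjusted p = 0.628).

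Among the ligands, Igf1 was read differently by its 5 probes. In mPFC, A_55_P2031631, A_55_P2085984, A_55_P2085974 and A_55_P2085979 were well above background on 24 of 24 arrays and A_55_P2031636 on 23. In blood, the first 3 of these were well above background on 0 of 24 arrays, with mean signals of 5.47, 3.86 and 2.71. A_55_P2085979 and A_55_P2031636 were well above background on all 24 blood arrays, with signals of 3500 to 12687 and of 117 to 296. A blood level of Igf1 thus rests on those 2 probes, and the other 3 give only an upper bound there. Whether the 2 bright probes read Igf1 RNA in blood was not tested, and every blood value of Igf1 is given as a reading of the named probe.

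**Figure D3:**
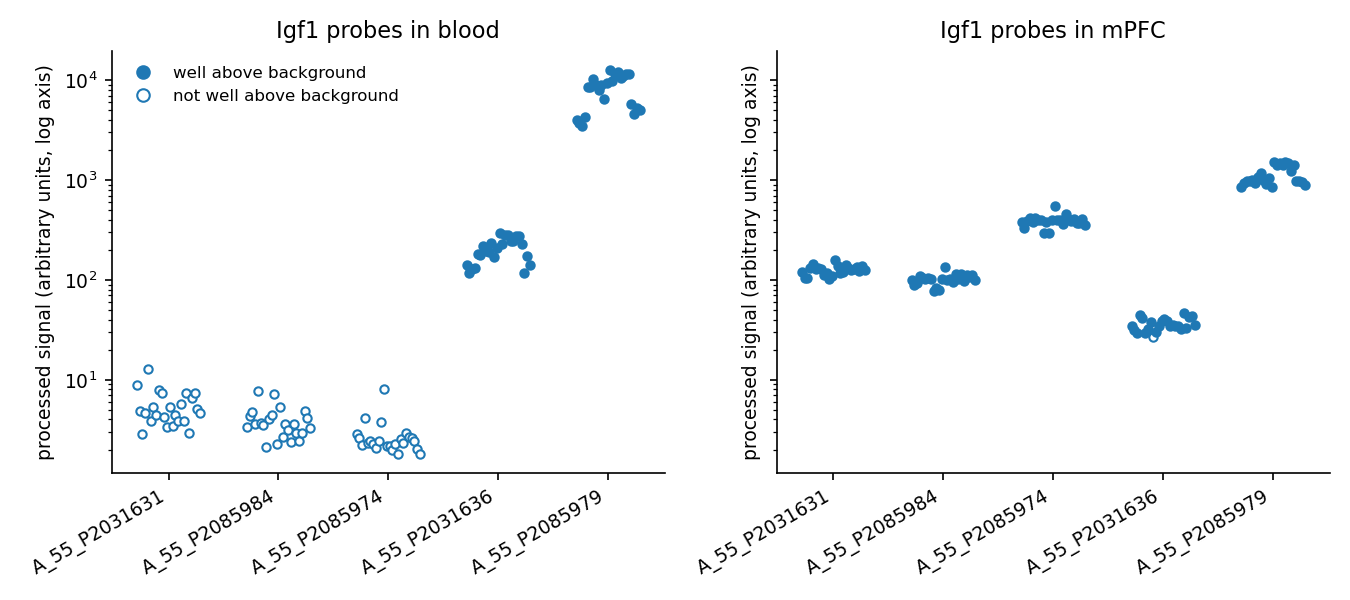
Processed signal of the 5 Igf1 probes on a log axis in blood (left) and mPFC (right), with 24 arrays per probe; filled points are well above background and open points are not. In blood 3 probes are at background on every array and 2 are not, while in mPFC open points are seen for A_55_P2031636 alone.

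For A_55_P2085979 the blood level was 6.69 ± 0.17 (SD, n = 6) in control, 6.33 ± 0.81 in CUMS, 5.16 ± 0.38 in OVX and 6.10 ± 0.32 in OVX+CUMS mice. The lowest, median and highest levels were 6.49, 6.64 and 6.93 in control, 5.46, 6.06 and 7.70 in CUMS, 4.69, 5.07 and 5.72 in OVX, and 5.67, 6.21 and 6.53 in OVX+CUMS mice. OVX mice lay wholly below control mice, and overlapped with the other groups. How many of all detected blood probes likewise had no overlap between OVX and control mice is not given here, and 55.1% were called for OVX. The OVX effect in blood was -0.88 (SE 0.18, adjusted p = 0.000769), and for A_55_P2031636 it was -0.87 (SE 0.16, adjusted p = 0.000246).

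These falls of the Igf1 probes followed the slide as well as the surgery, which cannot be told apart. Within CUMS mice, A_55_P2085979 was 6.82 and 7.70 on slide 1 and 5.46 to 6.07 on slide 2, a gap with no difference in treatment. The level of 7.70 was that of CUMS mouse 2, whose array had the lowest 75th percentile in blood, 54.9. Before scaling, the signal of this probe was 4602 to 11641 in CUMS and 9902 to 12687 in control mice. With slide as a block the OVX effect was -0.39 (SE 0.25, adjusted p = 0.821) for A_55_P2085979 and -0.17 (SE 0.28, adjusted p = 0.948) for A_55_P2031636. The CUMS effect was 0.29 for each in the model without slide (adjusted p = 0.188 and 0.125). It was 0.54 (adjusted p = 0.0138) and 0.64 (adjusted p = 0.0113) with slide as a block, and within slides 1 and 3 it was 0.57 and 0.50 for A_55_P2085979, short of the threshold in each. The OVX by CUMS interaction of A_55_P2085979 was 1.31 (SE 0.37, adjusted p = 0.0640). Its blood levels ran with many other probes: 748 of the 20767 detected probes had r above 0.9 with it over the 24 arrays, led by Serpina11 at 0.995, and 784 with A_55_P2031636. Serpina11, a relative of serine protease inhibitors, was named after its value was seen. Summed levels of 8 endothelial genes, of which 5 were detected in blood, were likewise lowest in OVX mice, at 6.59 ± 0.24 (SD, n = 6) in control, 6.51 ± 0.52 in CUMS, 5.75 ± 0.18 in OVX and 6.28 ± 0.17 in OVX+CUMS mice. The endothelial list was not alone in this. The mural cell, choroid plexus, astrocyte, erythroid, leptomeningeal and platelet lists also had their lowest mean in OVX mice, and the remaining lists in another group. The part of any list in the Igf1 readings was not tested.

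In mPFC, A_55_P2085979 was 1.18 ± 0.08 (SD, n = 6) in control, 0.78 ± 0.26 in CUMS, 0.63 ± 0.09 in OVX and 0.74 ± 0.15 in OVX+CUMS mice. Control mice had 1.16, 1.09, 1.14, 1.14, 1.31 and 1.24, and OVX+CUMS mice 0.81, 0.87, 0.82, 0.58, 0.83 and 0.51, so these groups did not overlap. CUMS mice fell into a pair at 1.04 and 1.19 on slide 1 and 4 mice at 0.52 to 0.69 on slide 2. The OVX effect was -0.30 (SE 0.07, adjusted p = 0.00155), the interaction 0.50 (SE 0.13, adjusted p = 0.0386), and OVX+CUMS mice were 0.44 below control mice (adjusted p = 0.000941). With slide as a block the OVX effect turned to 0.00539 (adjusted p = 0.996) and the interaction was 0.15 (adjusted p = 1.00). Surgery and slide cannot be told apart in that fit, since no slide holds both surgeries at the same stress level. The interaction was also lost under the spike-in shift (adjusted p = 0.217), without the detection filter (adjusted p = 0.0750) and when any of 15 of the 24 arrays was left out. The other 3 detected Igf1 probes did not pass for any effect in mPFC. Their OVX effects were -0.08, -0.05 and -0.12 for A_55_P2031631, A_55_P2085974 and A_55_P2085984. The probes also varied apart over the 24 mPFC arrays. A_55_P2085974 and A_55_P2085984 had r = 0.754 with each other and 0.240 and 0.140 with A_55_P2085979, while 677 of the 28357 detected mPFC probes had r above 0.9 with the latter.

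**Figure D4:**
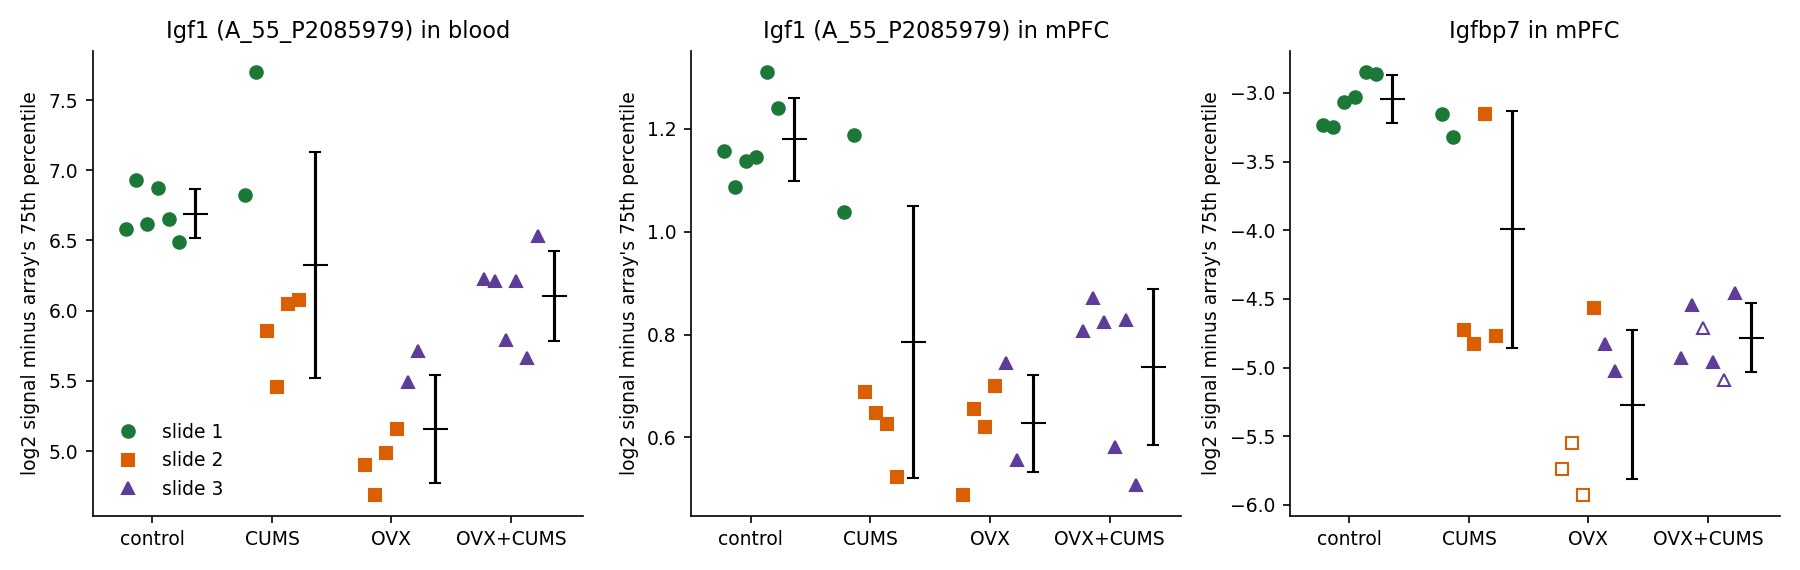
Igf1 by A_55_P2085979 in blood (left) and mPFC (middle), and Igfbp7 in mPFC (right), as log2 signal minus the 75th percentile of the array. Each point is 1 mouse, shape and colour give the slide, open points are not well above background, and bars give mean ± SD of 6 mice. In both tissues the CUMS mice of slide 1 lie above those of slide 2 for Igf1. The point at 7.70 in blood, above all control mice, is CUMS mouse 2, whose array had the lowest 75th percentile. For Igfbp7 the CUMS mice of slide 1 lie above 3 of the 4 CUMS mice of slide 2.

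Igf2, the ligand of fetal growth, was dim in both tissues and entered no test. In blood it was well above background in 0 of 6 control, 3 of 6 CUMS, 4 of 6 OVX and 6 of 6 OVX+CUMS mice. Control mice had measured levels of -3.67, -2.88, -3.37, -3.59, -3.29 and -3.19, and OVX+CUMS mice of -2.13, -1.99, -2.26, -2.16, -2.88 and -1.89. The groups did not overlap, although OVX+CUMS mouse 5 nearly met the highest control mouse. The difference of the measured means was 1.11, and 1.25 without mouse 5. These groups share no slide, and Igf2 also varied with slide within a treatment. CUMS mice averaged -3.91 on slide 1 and -2.76 on slide 2, and OVX mice -3.53 on slide 2 and -2.84 on slide 3. Against the lowest signal that is well above background, or the measured signal where higher, on each control array, Igf2 was at least 2.13-fold higher in OVX+CUMS mice. Among detected blood probes, 8.18% did not overlap between these groups. In mPFC, Igf2 was well above background on 23 of 24 arrays at -4.59 to -2.78, and the 4 groups overlapped.

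Of the receptors, Igf1r in blood differed in a single mouse. OVX+CUMS mice 1 to 6 had -0.33, -0.64, -0.26, -0.40, 1.70 and -0.48, and mouse 5 again was the high one. The other groups spanned -0.46 to 0.09 in control, -1.13 to 0.07 in CUMS and -0.83 to 0.24 in OVX mice. The OVX+CUMS mean was -0.07 ± 0.88 (SD, n = 6) with mouse 5 and -0.42 ± 0.15 (n = 5) without it, and the difference from control mice went from 0.16 to -0.19. No effect on Igf1r passed in blood, where the OVX effect was 0.24 (SE 0.21, adjusted p = 0.312). In mPFC Igf1r was 2.61 ± 0.13 in control, 2.77 ± 0.10 in CUMS, 2.86 ± 0.15 in OVX and 2.70 ± 0.20 in OVX+CUMS mice. Its largest term there was an interaction of -0.32 (SE 0.12), with an adjusted p of 0.118.

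Igf2r in blood was higher in OVX and lower in stressed mice. The lowest, median and highest levels were -0.62, -0.10 and -0.01 in control, -0.87, -0.39 and 0.02 in CUMS, 0.03, 0.09 and 0.30 in OVX, and -0.53, -0.16 and 0.05 in OVX+CUMS mice. All OVX mice lay above all control mice and, narrowly, above all CUMS mice, and the remaining pairs of groups overlapped. The share of all detected probes without overlap between OVX and control mice is not given here, and 55.1% of them were called for OVX. The OVX effect was 0.26 (SE 0.10, adjusted p = 0.0248) and the CUMS effect -0.27 (SE 0.10, adjusted p = 0.0241). The OVX effect was -0.000108 (SE 0.21) with slide as a block, while the CUMS effect was -0.40 (SE 0.13, adjusted p = 0.0191). Under normexp background correction the OVX effect on Igf2r was 0.12 (adjusted p = 0.0726), and in a fit without the detection filter neither effect passed (adjusted p = 0.0534 for OVX and 0.0689 for CUMS). Within slides 1 and 3 the CUMS difference was -0.45 and -0.36, each with an adjusted p over the threshold. In mPFC, Igf2r was 1.08 ± 0.16 in control and 1.11 ± 0.15 in OVX+CUMS mice, and no effect passed. Group means of Igf2r in blood were -0.18 in control, -0.40 in CUMS, 0.13 in OVX and -0.19 in OVX+CUMS mice. The summed level of 4 B cell genes, all detected in blood, had its highest mean in OVX and its lowest in CUMS mice as well, at 7.63 to 8.17 in control, 7.03 to 7.83 in CUMS, 8.26 to 8.56 in OVX and 7.02 to 8.29 in OVX+CUMS mice. The part of B cells in the Igf2r levels was not tested.

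Igfbp4, a binding protein that restrains IGF1 until it is cleaved, rose with OVX in blood. Control mice had levels of -1.26, -1.27, -0.66, -0.33, -0.52 and -1.16, and CUMS mice of -1.78, -0.89, -0.51, -0.88, -2.03 and -1.06. OVX mice had -0.26, -0.16, -0.32, -0.70, 0.16 and -0.66, and OVX+CUMS mice -0.99, -0.49, 0.21, -0.66, -0.22 and -0.61. Sham-operated and ovariectomized mice overlapped, but 4 of the 6 OVX mice were above every control mouse. The OVX effect was 0.64 (SE 0.17, adjusted p = 0.00407), with slide as a block it was 0.42 (SE 0.39, adjusted p = 0.886), and under normexp 0.25 (adjusted p = 0.0251). In mPFC the OVX effect was -0.08 (SE 0.13, adjusted p = 0.693). In blood the B cell list went from 7.95 ± 0.19 (SD, n = 6) in control to 8.37 ± 0.11 in OVX mice, and from 7.45 ± 0.31 in CUMS to 7.90 ± 0.48 in OVX+CUMS mice, where Igfbp4 in blood went from -0.87 to -0.32 and from -1.19 to -0.46; the part of B cells was not tested. The CUMS effect on Igfbp4 in mPFC was -0.33 (SE 0.13, adjusted p = 0.137), with OVX+CUMS mouse 6 lowest at -1.31.

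The other binding proteins passed the detection filter in mPFC only. In blood, A_55_P2056729 of Igfbp2 was well above background on 17 of 24 arrays, at -3.08 ± 0.49 (SD, n = 6) in control, -2.31 ± 0.84 in CUMS, -3.31 ± 0.60 in OVX and -2.50 ± 0.75 in OVX+CUMS mice, and these groups overlapped. Igfbp2, which is made in the meninges and choroid plexus, had CUMS effects of 0.30 (SE 0.12, adjusted p = 0.137) and 0.20 (SE 0.12, adjusted p = 0.312) by its 2 probes, neither past the threshold. Both probes were highest in OVX+CUMS mouse 6, at 2.08 and 2.28, where the other OVX+CUMS mice had at most 1.54 and 1.69. In that mouse the 10 leptomeningeal and fibroblast genes summed to 4.45, where the remaining 5 mice of that group had 2.35 to 2.62, and the 8 mural cell genes to 5.24, where those 5 had 3.74 to 4.09. The leptomeningeal list was also high in CUMS mice 3 to 6, at 3.65 to 3.98, whose first Igfbp2 probe stood at 1.43 to 1.55. These are the CUMS mice of slide 2, and in the CUMS mice of slide 1 that probe averaged 0.90. The list also reached 3.77 in control and 3.71 in OVX mice, yet that probe stood at no more than 1.13 and 1.22 in those groups. The share of meninges in the dissected tissue was not tested. Igfbp5, a binding protein abundant in bone, was 2.13 ± 0.26 (SD, n = 6) in control, 2.15 ± 0.18 in CUMS, 2.22 ± 0.13 in OVX and 2.32 ± 0.17 in OVX+CUMS mice, with no effect past the threshold. Igfbp3, the main carrier of IGFs in plasma, was -1.72 ± 0.29, -1.68 ± 0.27, -1.35 ± 0.28 and -1.66 ± 0.39 in the same order by A_52_P253179, and no effect passed. Its other probe, of another transcript, was not well above background on any mPFC array.

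Igfbp7, which binds IGFs weakly and is known from blood vessels, missed the detection filter in mPFC because it dropped to background in some mice. Control mice had levels of -3.23, -3.25, -3.06, -3.03, -2.85 and -2.86, and OVX+CUMS mice of -4.93, -4.55, -4.71, -4.96, -5.09 and -4.46. CUMS mice had -3.15 and -3.32 on slide 1 and -4.73, -4.83, -3.16 and -4.77 on slide 2. OVX mice had -5.74, -5.55, -5.92, -4.57, -4.83 and -5.03. No ovariectomized mouse reached the control range. Of all detected mPFC probes, 17.2% did not overlap between OVX+CUMS and control mice, and the share for OVX against control mice is not given here. Among CUMS mice, 1 of 4 on slide 2 lay with those of slide 1. The probe was well above background in 6 of 6 control, 6 of 6 CUMS, 3 of 6 OVX and 4 of 6 OVX+CUMS mice. Since 5 of the 12 ovariectomized mice were not well above background, the size of the difference is open at the low end and no test is given. The 8 endothelial genes, of which 7 were detected, summed to 4.98 ± 0.17 in control, 5.14 ± 0.18 in CUMS, 4.91 ± 0.20 in OVX and 5.01 ± 0.19 in OVX+CUMS mice. In blood, Igfbp7 was well above background on 0 of 24 arrays.

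Over the family, the share of members that passed was read beside that of all detected probes. In blood, with Igfbp6 left out, the OVX effect passed for 4 of 5 member probes (Igf1 by both probes, Igf2r and Igfbp4), where 55.1% of all detected probes passed. The 2 Igf1 probes had r = 0.933 with each other over the 24 blood arrays, so their calls are not independent. The CUMS effect passed for 1 of 5 (Igf2r), where 48.5% did. The interaction passed for 0 of 5 by limma, where 1.42% of all did. At an unadjusted p under 0.05 there were 2 of 5, and 3571 of all 20767 detected probes. In mPFC the OVX effect passed for 1 of 12 (30.9% of all detected), the CUMS effect for 1 of 12 (4.19%), the interaction for 1 of 12 (4.49%), and OVX+CUMS minus control for 1 of 12 (33.4%). In mPFC, A_55_P2085979 of Igf1 was the single detected member probe whose OVX+CUMS and control levels did not overlap, against 17.2% of all detected probes. The median absolute effect over the members in mPFC was 0.09 for OVX and 0.11 for CUMS, and 0.10 and 0.07 over all detected probes. In blood these medians were 0.64 and 0.27 over 5 member probes, and 0.29 and 0.27 over all. With slide as a block, 0 of 20767 blood probes and 0 of 28357 mPFC probes passed for OVX.

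**Figure D5:**
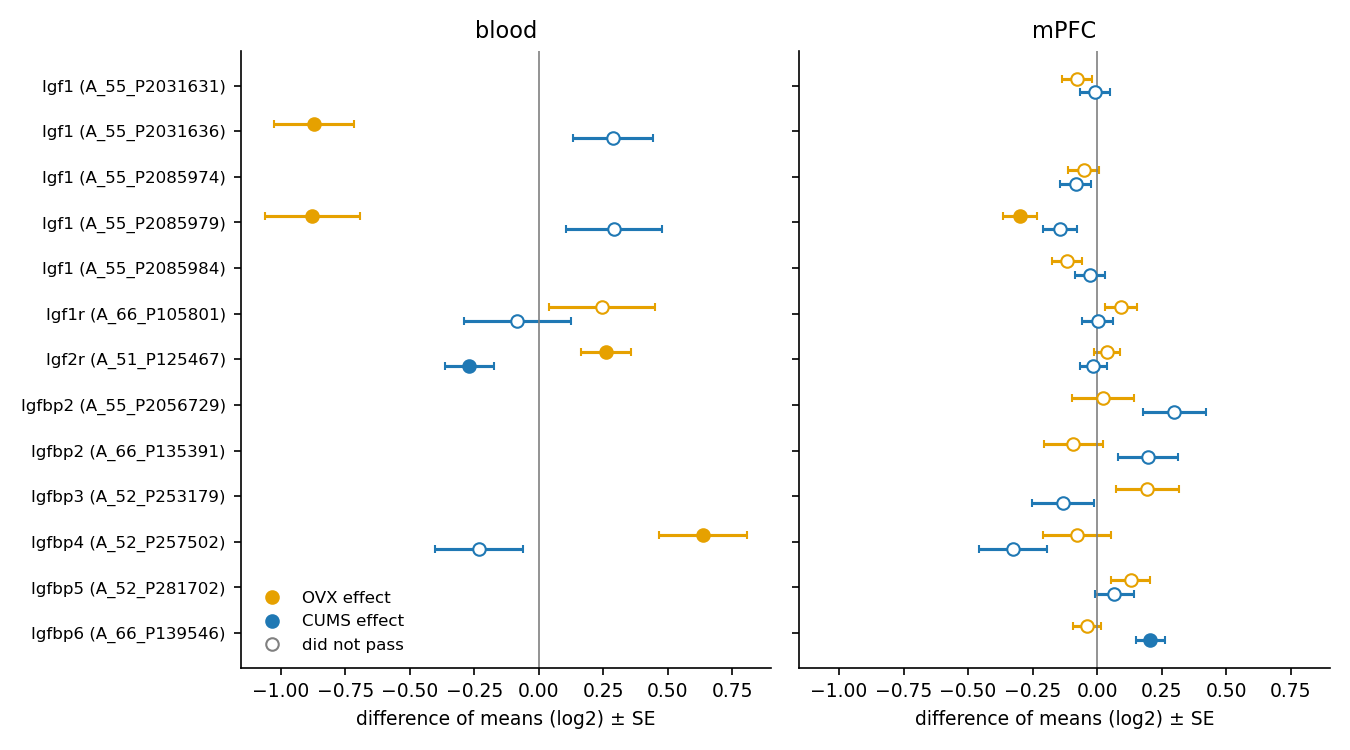
OVX and CUMS effects of the detected member probes in blood (left) and mPFC (right), as log2 differences of means ± SE from the model without slide; filled points passed at an adjusted p under 0.05. Igfbp6 in blood is left out. In blood the OVX effects of Igf1, Igf2r and Igfbp4 and the CUMS effect of Igf2r are filled, and in mPFC the OVX effect of 1 Igf1 probe and the CUMS effect of Igfbp6.

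The effects were then compared between tissues over the mice with both arrays, for the 4 member probes detected in both other than Igfbp6. The OVX effect on Igfbp4 was 0.71 higher in blood than in mPFC (SE 0.21, adjusted p = 0.00746), and that on Igf1 by A_55_P2085979 was 0.58 lower (-0.58, SE 0.19, adjusted p = 0.0170). The CUMS effect on Igf2r was lower in blood by 0.26 (-0.26, SE 0.10, adjusted p = 0.0379). The OVX differences were not called under normexp background correction, nor the CUMS difference under the spike-in shift. Among all 17544 probes detected in both tissues, 39.3% passed for the OVX comparison and 51.4% for the CUMS comparison. In control mice all 4 of these probes differed between the tissues, as did 92.9% of probes. Relative to the 75th percentile of each tissue, Igf1r was 7.17-fold higher in mPFC (log2 2.84, SE 0.12), Igf2r 2.40-fold higher (1.26, SE 0.11) and Igfbp4 1.88-fold higher (0.91, SE 0.17), while A_55_P2085979 of Igf1 was 45.6-fold lower (-5.51, SE 0.09). Of the probes not above background in blood of any control mouse, Igfbp5 was at least 47.9-fold and Igfbp2 by A_66_P135391 at least 27.4-fold higher in mPFC. The other Igfbp2 probe, A_55_P2056729, was well above background in 4 of 6 control blood arrays and gave a smaller gap, from -3.08 ± 0.49 (SD, n = 6) in blood to 0.93 ± 0.20 in mPFC. Igf1 by A_55_P2085974 was at least 7.16-fold higher in mPFC, the opposite direction to A_55_P2085979. Igfbp3 was at least 3.33-fold higher and Igfbp7 at least 1.33-fold.

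The wider pathway was followed through 47 genes listed by role, each read by 1 probe in a tissue, and other probes of these genes were not compared. In blood 23 were detected, of which 11 rose and 5 fell with OVX, and 3 rose and 8 fell with CUMS, beside 55.1% of all detected probes called for OVX and 48.5% for CUMS. Among the largest rises with OVX were those of Akt1, the kinase below the receptor (0.44, SE 0.13, adjusted p = 0.00947), and the adaptor Grb2 (0.40, SE 0.10, adjusted p = 0.00177). The largest falls were of Insrr, an orphan relative of the insulin receptor (-0.53), the transcription factor Foxo3 (-0.46) and the insulin receptor substrate Irs4 (-0.44). With CUMS, H19, the imprinted partner of Igf2, rose by 0.56 (SE 0.18, adjusted p = 0.0152), as did Insrr (0.32) and Irs4 (0.26). Foxo1 (-0.48), Grb2 (-0.35) and Pdpk1 (-0.35), the kinase that activates AKT, fell. Of the 17 downstream kinases and opponents, 14 were detected in blood, and 6 rose and 3 fell with OVX. None of the 9 carriers, proteases and protease inhibitors was detected there. The counts hold for levels set against the array's 75th percentile. With a shift by the spike-in probes, which moved the median of all detected blood probes to 0.40 for OVX and -0.33 for CUMS, 15 list genes rose and 0 fell with OVX, and 0 rose and 15 fell with CUMS. Once slide was a block 0 passed for OVX, and 3 rose and 12 fell with CUMS. The share of all detected blood probes called for CUMS in that fit is not given here, so these counts are not read as particular to the list.

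In mPFC 35 of the 47 genes were detected, of which 7 rose and 3 fell with OVX and 3 rose and 1 fell with CUMS, beside 30.9% and 4.19% of all detected probes. Pik3r1, a regulatory subunit of the lipid kinase below the receptor, rose with OVX (0.24, SE 0.04, adjusted p = 0.000194) and with CUMS (0.20, SE 0.04, adjusted p = 0.0185). Akt1 (0.16) rose with OVX, and Jak2 (0.14), the kinase of the growth hormone receptor, rose with CUMS. Rheb, the GTPase that switches on mTORC1, fell with OVX (-0.31, SE 0.05, adjusted p = 0.000205) and with CUMS (-0.20, SE 0.05, adjusted p = 0.0411), and Irs1 and Pik3ca each fell by 0.12 with OVX. The interaction passed for Irs2 alone of the 35, beside 4.49% of all probes (-0.49, SE 0.13, adjusted p = 0.0386). With the spike-in shift, which moved the median of all detected mPFC probes to -0.08 for OVX and -0.11 for CUMS, 0 list genes rose and 6 fell with OVX, and 0 rose and 4 fell with CUMS. In the fit with slide as a block 0 passed for either effect in mPFC. The median OVX effect over the detected list genes was 0.22 in blood and 0.04 in mPFC, beside 0.04 over all detected probes in each tissue. With slide as a block it was 0.00839 in blood, beside -0.0140 over all detected probes, and 0.00125 in mPFC, beside 0.0114.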

How the data were processed

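RNA of blood cells and mPFC from 24 mice was measured on 48 one-colour arrays with 62976 spots. Leaving out 3671 control spots, they hold 55681 probes. Per the file headers, the authors extracted the intensity values with Feature Extraction 10.7.3.1, which subtracts background and does not scale arrays against each other. The series table deposited by the authors holds log2 values shifted by the 75th percentile, and 100% of the 54871 probes with 1 spot and no outlier mark lay within 0.001 of the values computed here, up to a constant per array. The medians of its columns ran from -3.89 to -2.66. Human samples were not analysed here.

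Groups came from the labels, which name separate mice. Control spots and 98 to 206 outlier spots per array were left out, and 0 other spots were saturated. Spots of a probe were averaged and log2 signals were shifted by the 75th percentile. Between 23601 and 34856 probes per array were well above background in blood, and between 31555 and 38067 in mPFC. All detected probes of a tissue were fitted in limma 3.58.1 (R 4.3.3) with terms for OVX, CUMS and their interaction, and adjusted by Benjamini-Hochberg at 0.05. Adjusted p-values are from these models unless an alternative is named beside them, and the script of these models was tested on simulated data. Igfbp6 was left out of every test that uses blood values. The OVX and CUMS effects were compared between tissues with mouse as a random block (correlation 0.059). The tissues of control mice were compared with mouse as a fixed block. Effects of each probe of a gene were kept apart. "At least" folds set the mean of the brighter group against the lowest signal well above background, or the measured signal where higher, on each array of the dimmer one. Chromosome positions came from a RefSeq gene table of GRCm38.p6, to which the transcripts of 26762 probes matched.

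Named genes were all members, up to 3 pathway genes with the largest called rise and fall for each effect (1 of them is not reported here), and the 5 probes most like Igfbp6. The members and lists were chosen with earlier results of these data known. Alternatives were normexp with an offset of 50, quantile normalization, a percentile over detected probes, a spike-in shift, no detection filter, the authors' values, no moderation of the spread, slide or replicate number as a block, fits within slides, and leaving out each mouse.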

Additional observations from a re-analysis of the deposited data

Results flagged for a closer look

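Of 68 sets of 6 arrays, 1 for each detected member probe in each group of a tissue other than Igfbp6 in blood, 4 (5.88%) held an array whose gap to its nearest neighbour, as a share of the range of the group, exceeded Dixon's critical value for 6 values; chance alone gives such an array in about 5% of sets. In blood these were Igf1r in OVX+CUMS mouse 5, at 1.70 with its neighbour at -0.26, and Igf2r in control mouse 2, at -0.62 with its neighbour at -0.21. In mPFC they were Igfbp3 in control mouse 1, at -2.27 with its neighbour at -1.70, and Igfbp5 in CUMS mouse 4, at 2.5 with its neighbour at 2.12.

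The OVX effect on Igf1 in mPFC by A_55_P2085979 differed with stress, by an interaction of 0.50. Between tissues, the OVX effect differed by 0.71 (blood minus mPFC) for Igfbp4 and by -0.58 for Igf1 by A_55_P2085979, and the CUMS effect by -0.26 for Igf2r. The slides of the 2 tissues were laid out alike, so that their part in these differences was not tested.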

How the results depend on the processing

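With slide as a block, the number of member probes called fell to 0 for OVX in blood and mPFC, and to 0 for CUMS and the interaction in mPFC, while it rose to 3 for CUMS in blood. No detected probe of either tissue passed for OVX in that fit, where surgery and slide cannot be told apart. The share of all detected blood probes called for CUMS in that fit is not given here, so the rise is not read as particular to the members. The OVX effect turned to -0.000108 for Igf2r in blood and to 0.00539 for Igf1 by A_55_P2085979 in mPFC. Without the detection filter, a combination with slide that was chosen after seeing the data, 0 were again called for OVX in either tissue and the same 2 effects turned. Within slides 1 and 3 the CUMS effect was called for 0 in both tissues.

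Under normexp 1 member was called for the interaction in blood, 2 for OVX in mPFC and 0 for OVX between tissues. Quantile normalization gave 0 for CUMS in mPFC and 2 for CUMS between tissues, and a percentile over detected probes 0 for CUMS in mPFC. The spike-in shift gave 2 for CUMS in blood, 3 for OVX, 3 for CUMS and 0 for the interaction in mPFC, and 0 for CUMS between tissues. Over all detected probes it changed the calls from 5696 higher and 5751 lower to 10617 and 1506 for OVX in blood, from 3963 and 6109 to 526 and 9086 for CUMS in blood, from 5423 and 3328 to 143 and 5438 for OVX in mPFC, and from 662 and 527 to 49 and 4633 for CUMS in mPFC. Without the detection filter 2 were called for OVX (Igf1 and Igfbp7, the latter not well above background in 5 of 12 ovariectomized mice), 0 for CUMS and 0 for the interaction in mPFC. Without moderation of the spread 0 were called for the interaction in mPFC.

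Leaving out 1 mouse at a time gave 4 for OVX in blood and 1 for OVX in mPFC throughout, 1 to 2 for CUMS in blood (2 without CUMS mouse 4), 0 to 2 for the interaction in blood (2 without CUMS mouse 2), 0 to 3 for CUMS in mPFC (3 without CUMS mouse 2), 0 to 1 for the interaction in mPFC, 0 to 2 for CUMS and 2 to 3 for OVX between tissues, and 4 between tissues in control mice. The Igf1 interaction in mPFC was lost without any of 15 mice, with adjusted p of 0.00261 to 0.0803 by limma. The difference of Igfbp6 in blood was 1.10 to 1.98.

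Mice with the same replicate number did not deviate together (mean r of -0.04 in blood and 0.06 in mPFC, against 0.01 and -0.01 for other numbers). With the replicate number as a block the CUMS calls in mPFC went from 1 to 0 (Igfbp6, adjusted p = 0.0540 by limma), and no other count of member calls changed.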
